A study of Mus musculus with 65 samples.

Results

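The neurotrophic and gliotrophic factors described here are 9 growth factors and cytokines: Vegfa, Pdgfa, Igf1, Fgf2, Nrg1, Bdnf, Gdnf, Cntf and Lif. They were found by symbol among the Ensembl genes of the gene count table, and all 9 were present among its 50686 genes. The question was whether the retina's supply of these transcripts changed when microglia were removed, when they returned, or after lipopolysaccharide (LPS), a bacterial cell wall product that provokes inflammation.

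Trophic factors are released by cells and bind receptors on their neighbours, where they sustain survival, growth or repair. Bdnf acts through the receptor kinase Ntrk2, Gdnf through Ret, Igf1, Fgf2, Pdgfa and Vegfa through receptor kinases of their own families, Nrg1 through the Erbb receptors, and Cntf and Lif through receptors that share Il6st and drive Stat3. In the retina, Mueller glia and astrocytes are known sources of Fgf2, Cntf and Lif, photoreceptor stress is known to raise Fgf2 and Lif, and microglia are among the cells known to make Igf1.

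RNA was measured in retinas of 65 adult C57BL/6J mice, 1 sample a mouse, in 16 groups. CD mice (n = 5) received the control diet. They are labelled 1, 2, 3, 4 and 2M, and the labels of the REPOP60 mice described below carry 2M as well. DEP mice received a diet with PLX5622, which blocks Csf1r, the receptor that microglia need to survive, and the number after DEP gives the days: DEP2, DEP7, DEP10, DEP14 and DEP21 held 4 mice each and DEP5 held 3. REPOP mice were returned to the control diet after PLX5622 so that microglia could repopulate, and the number again gives the days: REPOP3, REPOP5, REPOP10, REPOP14, REPOP21 and REPOP60 held 4 mice each and REPOP7 held 6, REPOP60 being labelled as 2 months. LPSCD mice (n = 3) received LPS on the vehicle diet. LPSREPOP mice (n = 4) are labelled only as PLX5622 with LPS: the study calls them repopulated, and their repopulation time is not in the labels.

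Library totals ran from 5106429 to 8760443 gene counts, with a median of 7944665. Sample titles end in RE (39 mice) or re (26 mice), and this suffix separated the libraries on the first principal component, which held 55.7% of the variance of 12347 genes. Most depletion and repopulation groups held 3 RE mice and 1 re mouse, whereas all REPOP60, LPSCD and LPSREPOP mice were re, so every comparison with CD carried the suffix as a term. Against CD, the fold changes of LPSCD and REPOP60 therefore rest on its 2 re mice, replicates 1 and 2M. LPSCD replicate 3 stood apart: it differed from the other re mice with an SD of 0.397 log2 units over genes, against 0.131 to 0.278 for the other 25, and results that rest on it are given with and without it. The microglia marker list (20 genes) summed to 71.1 to 94.2 counts scaled to library size (CPM) in CD mice and to 21.7 to 32.4 CPM in the 19 mice of DEP5 to DEP21, where 19 of 20 markers fell. The 4 DEP2 mice were at 29.1 to 33.5 CPM. These sums do not show that every microglial cell was gone at the early days. In LPSREPOP mice the same list summed to 86.3 to 134 CPM, so microglial transcripts were present there. The 12 photoreceptor markers summed to 41410 to 61440 CPM over the 65 mice. In such bulk tissue, fewer cells of a type and less RNA per cell cannot be told apart.

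Vegfa was by far the most abundant member. In FPKM, which scales fragments by transcript length and library size, it averaged 53.7 ± 6.64 over the 65 mice (SD). Fgf2 (4.82 ± 1.45 FPKM) and Igf1 (4.45 ± 0.773 FPKM) followed, and their values overlapped. Nrg1 (2.85 ± 0.458 FPKM), Bdnf (2.69 ± 0.682 FPKM) and Pdgfa (2.63 ± 0.712 FPKM) came next, again within each other's spread. Lif was low at 0.195 ± 0.122 FPKM. Cntf was listed at 0 to 5.27 FPKM and Gdnf at 0 to 0.238 FPKM.

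3 of the cytokine-like and neurotrophic members were near the limit of detection in the gene counts. Cntf averaged 2.55 counts a library, Gdnf 3.49 and Lif 5.05, against 1312 for Vegfa, 313 for Fgf2 and 243 for Igf1. A floor of 3 counts equals about 0.395 CPM in a library such as CD replicate 1, and Gdnf and Cntf were at 0 in some mice. The floor covers counting error only, and the median width of the 95% interval over the 13 comparisons with CD was 2.68 log2 units for Cntf, 2.30 for Gdnf and 1.95 for Lif, against 0.289 for Vegfa.

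The members are spread over 9 chromosomes of GRCm38 (GENCODE M21). Vegfa, which drives vessel growth and permeability, lies at chr17:46016993-46032369 on the minus strand, Fgf2 at chr3:37348346-37410108 (plus), Igf1 at chr10:87858265-87937042 (plus), Nrg1 at chr8:31814551-32884029 (minus), Bdnf at chr2:109674700-109727007 (plus), Pdgfa at chr5:138976014-138997370 (minus), Gdnf at chr15:7810846-7837575 (plus), Cntf at chr19:12763660-12765632 (minus) and Lif at chr11:4257557-4272514 (plus). Some of them share exonic bases with a neighbour. Cntf shared 78.9% of its exonic bases with Zfp91 on the same strand (165 CPM on average), and how reads within both genes were counted is not given in the sources used here, so the Cntf values are uncertain. Fgf2 shared 9.44% with Nudt6 and Pdgfa 26.1% with 6330403L08Rik, both on the opposite strand. The strand setting of the counting is not given in the sources used here, so reads from these pairs may not be told apart.

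Because Vegfa was the only member with a called change, its promoter is shown for reference: the 250 bases before the first of its 2 RefSeq start sites (GRCm38.p6, chr17:46032378-46032627, minus strand, written 5′ to 3′ along the gene), with GGGCGG, the GC box bound by Sp1, in capitals.
Vegfa promoter: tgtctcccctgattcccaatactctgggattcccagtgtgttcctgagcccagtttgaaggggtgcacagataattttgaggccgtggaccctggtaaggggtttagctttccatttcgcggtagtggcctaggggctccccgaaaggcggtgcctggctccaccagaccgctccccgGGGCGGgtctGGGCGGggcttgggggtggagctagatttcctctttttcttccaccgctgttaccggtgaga
It held 2 GC boxes, at 72 and 62 bases before the start, and 59.2% G or C, against a median of 52.4% over 32851 promoter windows of the same length. Counted on both strands, GGGCGG occurred in 32.7% of all windows. The core of the hypoxia response element, ACGTG, occurred in 16.6% of windows. The STAT motif TTCNNNGAA occurred in 7.02% and TATAAA in 12.4%. None of these 3 was found in the window shown. ACGTG was found once in the window of the second Vegfa start site, in 1 of 2 Gdnf windows and in 2 of 7 Bdnf windows, and TTCNNNGAA in 1 Bdnf window. Windows were held for 8 of the 9 members, Nrg1 being the one without. Such matches describe letters only.

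Several members differed between the title suffixes. In the 58 mice without LPS, Bdnf averaged 15.2 ± 3.11 CPM in RE mice and 9.76 ± 1.82 CPM in re mice. Pdgfa went the other way, at 5.2 ± 1.03 CPM in RE and 7.93 ± 1.30 CPM in re mice. Igf1 was 32.8 ± 2.99 CPM in RE and 27.6 ± 2.72 CPM in re mice. Vegfa was 158 ± 14.7 CPM in RE and 169 ± 9.39 CPM in re mice, a smaller shift (1.07-fold). Fgf2 (38.9 against 38.5 CPM) and Nrg1 (11.6 against 11.8 CPM) differed little. Plain group means of Bdnf, Pdgfa, Igf1 and Vegfa in the all-re groups are therefore not comparable with those of CD. The fits below compare mice within a suffix.

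**Figure D1:**
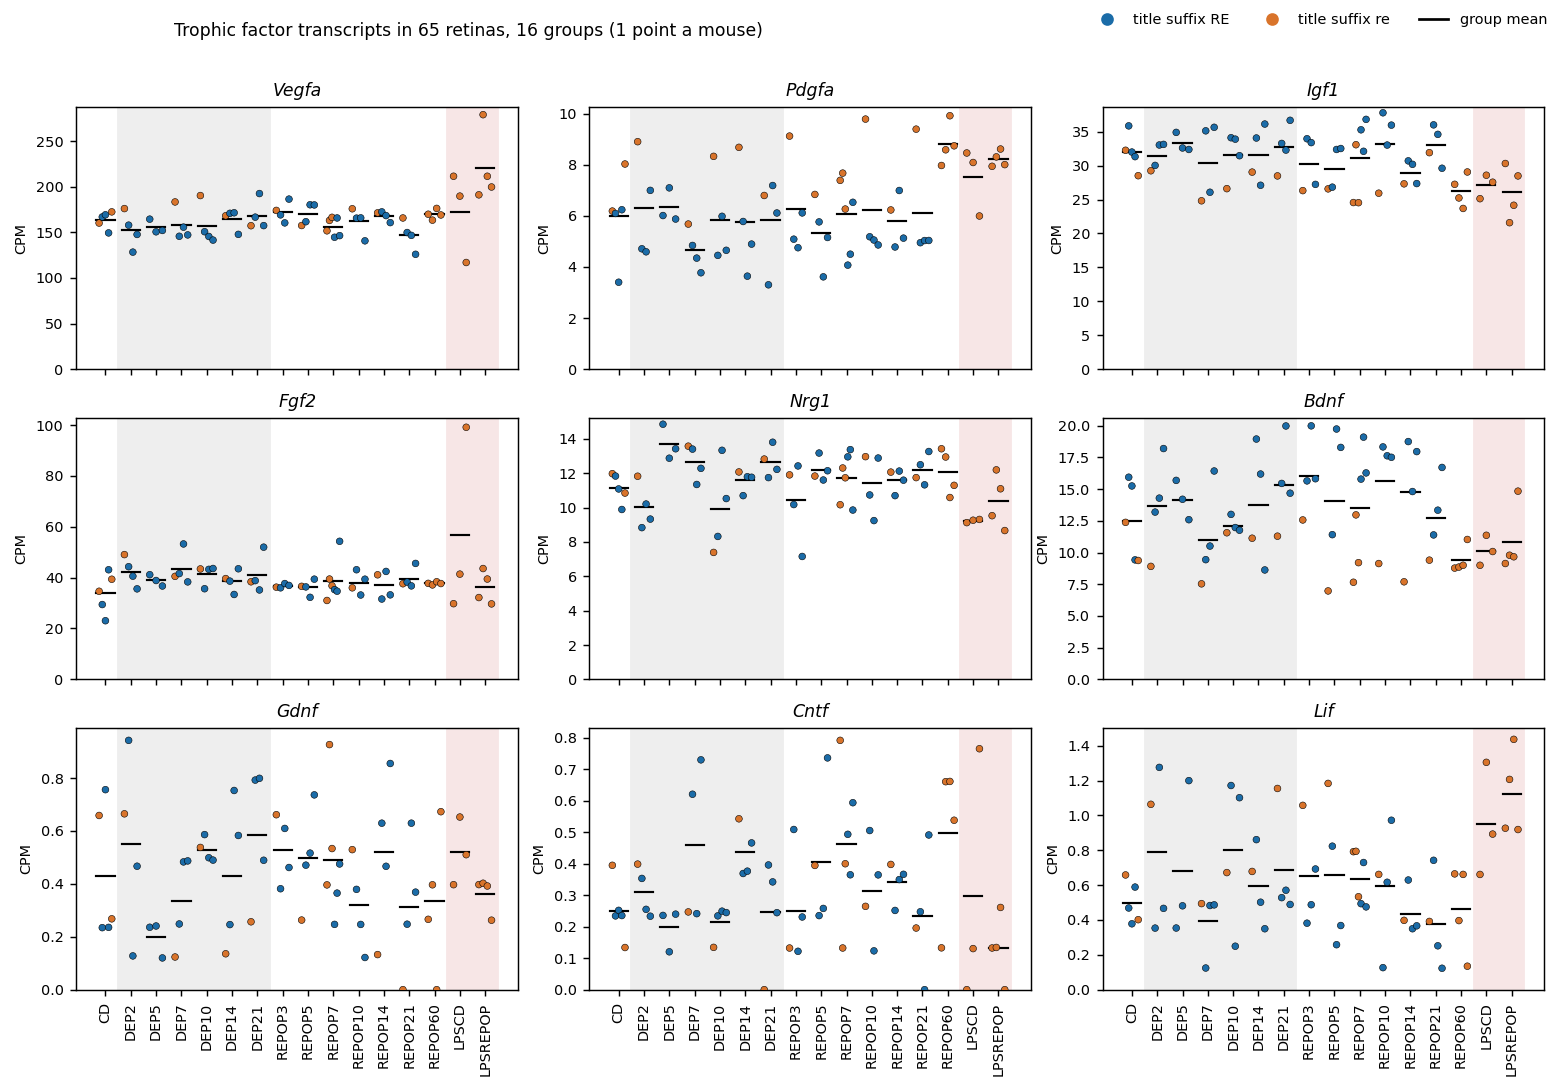
Library-scaled counts (CPM, linear axes from 0) of the 9 members in each of 65 mice by group, with points coloured by title suffix and a bar at the group mean; grey shading marks depletion and pink shading LPS. Vegfa stays between 126 and 193 CPM in all mice without LPS and reaches 279 CPM in LPSREPOP, whereas the re mice mostly lie low within their group for Bdnf and high for Pdgfa.

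Under microglial depletion, no member had a called change. None of the 9 members passed an FDR of 0.05 (edgeR quasi-likelihood test, adjusted over all genes) in any of the 6 depletion groups against CD. Over the 13 depletion and repopulation groups the count was 0 of 117 member tests, 7 of them (5.98%) at an unadjusted p under 0.05, and DESeq2 also called 0. The background was low as well: of all genes tested, the share called was highest in DEP21 (0.139%), followed by DEP2 (0.109%), DEP7 (0.108%), DEP10 (0.096%), DEP14 (0.067%) and DEP5 (0.0646%). Beside the 5.98% of member tests, 3.22% (REPOP60) to 16.8% (REPOP21) of all genes were at an unadjusted p under 0.05. With the 19 mice of DEP5 to DEP21 taken as 1 microglia-depleted group, 0.237% of genes and 0 of the 9 members were called. Fgf2 alone was at an unadjusted p under 0.05 there, beside 6.47% of all genes.

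Igf1, the member best known as a microglial product, was measured at 32.3, 35.9, 32.0, 31.3 and 28.5 CPM in the 5 CD mice. The mice of DEP5 to DEP21 ranged from 24.8 to 36.7 CPM and enclosed the CD values. Its log2 fold change was -0.05 (95% interval -0.19 to 0.08, FDR = 0.906), which is 0.964-fold with an interval from 0.878 to 1.06. A fall of Igf1 to below 0.878 of the control level lay outside this interval. The ratio of mean CPM was 0.9997 within RE mice (15 against 3) and 0.896 within re mice (4 against 2).

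Vegfa, too, overlapped between depleted and control retina. The CD mice were at 160.3, 167, 169, 149.5 and 173 CPM, and DEP5 to DEP21 mice at 142 to 193 CPM. Their difference on the log2 scale was -0.0019 (95% interval -0.12 to 0.12, FDR = 0.999). Bdnf, the neurotrophin of retinal ganglion cells, had a log2 fold change of 0.0095 (-0.29 to 0.31), and Pdgfa, the astrocyte mitogen made by ganglion cells, 0.0082 (-0.30 to 0.31). Nrg1, an Erbb ligand, gave 0.11 (-0.12 to 0.33). The 3 low members had wide log2 intervals, of -0.89 to 0.73 for Gdnf, -0.65 to 1.18 for Cntf and -0.37 to 1.11 for Lif.

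Fgf2, a survival factor for photoreceptors, was the member with the most values at an unadjusted p under 0.05. These were in 5 of 6 depletion groups, beside 4.14% to 8.2% of all genes in the 6 groups. For Fgf2 the 5 CD mice spread widely, at 34.6, 29.4, 23.1, 43.1 and 39.4 CPM. The 23 mice on PLX5622 lay between 33.4 and 53.3 CPM with a median of 40.5 CPM, and 22 of the 23 were above the CD median of 34.6 CPM. The range of each depletion group overlapped that of CD. Of the 30 mice of the repopulation groups, at 31.0 to 54.3 CPM with a median of 37.0 CPM, 25 were above that CD median too. The log2 fold change was positive in 6 of 6 depletion groups, from 0.22 in DEP14 to 0.37 in DEP7, and 0.28 in the pooled group (95% interval 0.08 to 0.47, 1.21-fold, unadjusted p = 0.00607, FDR = 0.529). It did not pass the test over all genes. The 6 comparisons share the same 5 controls. In FPKM the group means of Fgf2 did not follow the counts throughout. CD averaged 4.72 ± 1.77 FPKM (SD) and DEP2 4.57 ± 1.65 FPKM. DEP14 was at 4.92 FPKM, and DEP21, DEP10, DEP5 and DEP7 were at 5.23 to 6.15 FPKM.

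With mice of the same number paired across groups (replicate block), Fgf2 was called in DEP5 (log2 fold change 0.53, FDR = 0.0249), DEP7 (0.43, FDR = 0.000455) and DEP10 (0.36, FDR = 0.0110), and not in DEP2, DEP14, DEP21 or the pooled group (FDR = 0.273). Mice of the same number deviated together in DEP7 and DEP10 and not in DEP5, and in none of the 3 once the suffix was removed. CD replicate 3 had the lowest Fgf2 value of all 65 mice, and without it the pooled log2 fold change was 0.16 (95% interval -0.03 to 0.35, FDR = 0.722). Without CD replicate 4, the highest control, it was 0.40 (FDR = 0.183). Within RE mice the ratio of mean CPM was 0.36 on the log2 scale (15 against 3 mice) and within re mice 0.13 (4 against 2). Gfap, the intermediate filament of reactive Mueller glia and astrocytes, rose in the pooled group by 0.72 (FDR = 0.00225). Of the 13 Mueller glia and astrocyte genes it was the 1 called, beside 0.237% of all genes. The median log2 fold change of those 13 genes was 0.01. The part of Gfap in the Fgf2 values was not tested.

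**Figure D2:**
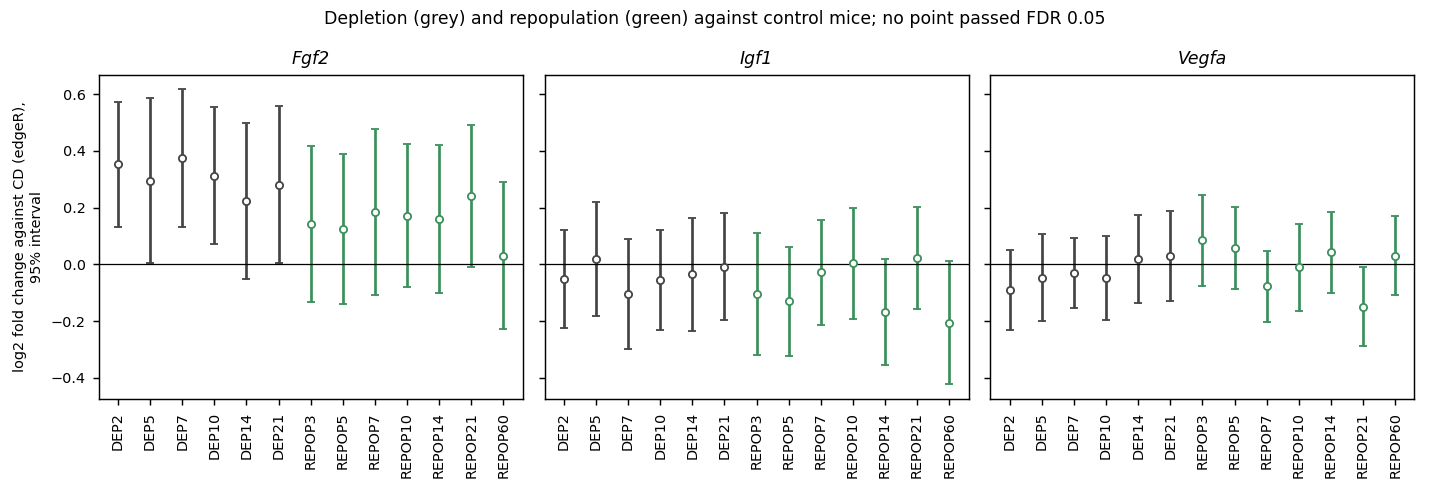
Fitted log2 fold change against CD with 95% intervals for Fgf2, Igf1 and Vegfa in the 6 depletion groups (grey) and 7 repopulation groups (green). None passed the FDR. The Fgf2 estimates lie above 0 in the 13 comparisons, which share the same 5 CD mice and do not all keep that sign in FPKM, and those of Igf1 and Vegfa lie on both sides of 0.

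Nrg1 was above every CD mouse in DEP5, at 14.9, 12.9 and 13.4 CPM against 9.89 to 11.98 CPM. Its log2 fold change was 0.34 (95% interval 0.06 to 0.61) with an FDR of 0.997. DEP10 mice lay at 7.39 to 13.3 CPM, with a log2 fold change of -0.20. Neither value passed.

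Over the 6 depletion groups singly, the log2 fold changes ran from -0.10 to 0.02 for Igf1, from -0.09 to 0.03 for Vegfa, from -0.25 to 0.23 for Bdnf and from -0.30 to 0.27 for Pdgfa. Bdnf averaged 13.96 CPM in the 15 RE mice of DEP5 to DEP21 against 13.54 CPM in the 3 RE controls, and 10.4 CPM in 4 re mice against 10.9 CPM in 2 re controls. Pdgfa was as close within each suffix, at 5.2 against 5.25 CPM in RE and 7.38 against 7.11 CPM in re mice.

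The return of microglia was also without a called change. None of the 9 members passed in any repopulation group, 0 by edgeR and 0 by DESeq2, with 1 at an unadjusted p under 0.05. The share of all genes called was highest in REPOP21 (1.9%), followed by REPOP10 (0.365%), REPOP7 (0.089%), REPOP5 (0.0756%), REPOP3 (0.0629%) and REPOP14 (0.0125%). In REPOP60 the share of genes called was 0%: edgeR called 0 of 24157 genes, 779 of them at an unadjusted p under 0.05, and DESeq2 called 0. Fgf2 had log2 fold changes between 0.03 in REPOP60 and 0.24 in REPOP21, all with intervals that included 0. Its mean FPKM was not above that of CD, at 3.72 to 4.70 in the 7 repopulation groups against 4.72 ± 1.77 (SD) in CD. These plain means are not adjusted for the suffix, and they lay within the range of the CD mice (2.15 to 6.45 FPKM).

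The smallest FDR of a member in any repopulation group was 0.255, for Vegfa in REPOP21. The 4 mice were at 166, 149.9, 147 and 126 CPM and overlapped CD. Its log2 fold change there was -0.15 (95% interval -0.29 to -0.01, unadjusted p = 0.0358). In that comparison 16.8% of all genes were at an unadjusted p under 0.05. REPOP21 held the smallest library of the series and the most genes called of the 13 groups. Igf1 in REPOP60 had a log2 fold change of -0.21 (95% interval -0.42 to 0.01), and Bdnf in REPOP3 0.31 (-0.02 to 0.63), neither passing the test.

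Vegfa was higher in LPSREPOP than in REPOP60, the only called change of a member. The LPSREPOP mice were at 191, 279, 212 and 199.9 CPM and the REPOP60 mice at 170.0, 163, 176 and 169 CPM. All 4 LPSREPOP mice were above all 4 REPOP60 mice, and all 4 were above every CD mouse. How many of all genes separate in this way was not counted. 3 of the 5 CD mice were RE, and Vegfa was lower in RE than in re mice (158 against 169 CPM without LPS). For LPSREPOP against REPOP60 the edgeR log2 fold change was 0.36 (95% interval 0.20 to 0.51). This was a 1.28-fold rise (interval 1.15 to 1.43), with an FDR of 0.00670. LPSREPOP differed from REPOP60 in 2.92% of all genes, so 1 of 9 members is to be read against that share. A difference in repopulation time, which the labels do not give for LPSREPOP, and LPS cannot be told apart in this comparison. The list of 12 acute LPS response genes summed to 33.6 to 244 CPM in LPSREPOP and 17.4 to 19.9 CPM in REPOP60, with 10 of 12 genes higher.

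1 mouse set part of its size: without LPSREPOP replicate 2, at 279 CPM, the log2 fold change was 0.23, still with an FDR of 0.00736. Without REPOP60 replicate 1, 2 or 4 the log2 fold change was 0.34 to 0.36 and the FDR 0.0577 to 0.0981, so the call was lost. On FPKM values with limma the log2 fold change was 0.30 on the log2(FPKM + 1) scale, with an FDR of 0.160.

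In the retina with resident microglia, Vegfa did not separate. The LPSCD mice were at 212, 189.9 and 117 CPM, so that replicates 1 and 2 lay above every CD mouse and replicate 3 had the lowest Vegfa value of the 65 mice. The log2 fold change of LPSCD against CD, which rests on the 2 re mice of CD, was 0.04 (95% interval -0.34 to 0.42, FDR = 0.954). Without replicate 3 it was 0.26 and was not called. Both LPS groups as 1 group were also compared with 6 unchallenged re mice, 2 of CD and 4 of REPOP60, a comparison chosen after the values were seen. The other 13 unchallenged re mice, of the remaining depletion and repopulation groups, were not used in it. Vegfa gave 0.22 (95% interval -0.01 to 0.46, FDR = 0.293) for 7 mice. Without LPSCD replicate 3 that difference was 0.32 with an FDR of 0.00309. It holds the same 4 LPSREPOP and 4 REPOP60 mice as the called comparison, so it is not independent of that call. The background of called genes was 0.0466% in LPSCD against CD and 4.27% in the comparison of 7 with 6 mice, and 0 of 9 members passed in either (edgeR and DESeq2). At an unadjusted p under 0.05 there were 0 members in the former, beside 10.5% of all genes, and 2, Lif and Nrg1, in the latter, beside 18.3% of all genes.

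Fgf2 varied widely among the LPSCD mice. It was 29.8, 41.4 and 99.1 CPM in LPSCD replicates 1, 2 and 3, where replicate 3 was the highest of the 65 mice and the next highest mouse reached 54.3 CPM. The log2 fold change against CD was 0.61 (95% interval -0.20 to 1.42, FDR = 0.593) and was -0.07 without replicate 3. In LPSREPOP mice Fgf2 was 32.2, 43.6, 39.5 and 29.7 CPM, with a log2 fold change against REPOP60 of -0.08 (95% interval -0.27 to 0.11). Against LPSCD it was -0.66 (FDR = 0.617), and 0.03 without LPSCD replicate 3.

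LPSCD replicate 3 was also high in the antisense neighbour Nudt6, at 31.0 CPM against 9.66 and 11.9 CPM in replicates 1 and 2. The length-scaled values did not follow the counts, with Fgf2 at 3.86, 6.94 and 5.05 FPKM in the same 3 mice. Genes of the Il6st pathway were high in that mouse too. Stat3 was 304 CPM against 91.7 and 129 CPM, and its inhibitor Socs3 was 24.6 CPM against 5.29 and 10.4 CPM. Gfap was 81.0 CPM against 12.04 and 16.8 CPM. Their part in the Fgf2 value was not tested.

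**Figure D3:**
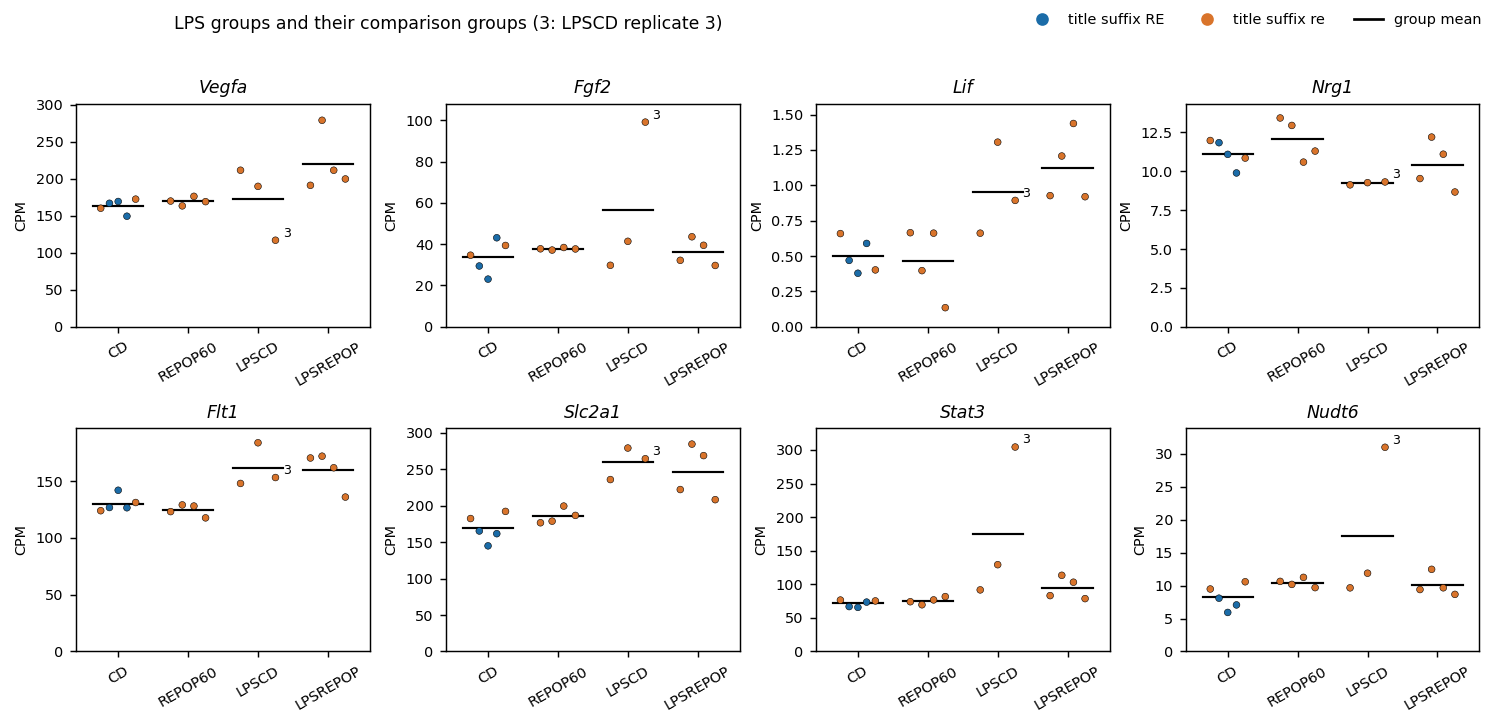
CPM (linear axes from 0) in each mouse of CD, REPOP60, LPSCD and LPSREPOP for 4 members (top row) and 4 related genes (bottom row), with bars at group means and LPSCD replicate 3 marked. Vegfa is higher in all 4 LPSREPOP mice than in REPOP60, and replicate 3 of LPSCD holds the lowest Vegfa and the highest Fgf2, Stat3 and Nudt6 values shown.

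Lif, a stress cytokine of Mueller glia, had few counts and positive fold changes in both LPS groups. The LPSREPOP mice were at 0.927, 1.21, 1.44 and 0.919 CPM, and REPOP60 mice at 0.665, 0.397, 0.662 and 0.135 CPM. These 2 groups did not overlap. LPSCD (0.661, 1.31 and 0.893 CPM) and CD (0.378 to 0.659 CPM) met in counts, at 5 for both the lowest LPSCD and the highest CD mouse. How many of all genes separate between such groups was not counted, here or for the other members. The log2 fold change was 1.22 in LPSREPOP against REPOP60 (95% interval 0.29 to 2.16, FDR = 0.177), 0.82 in LPSCD against CD (-0.41 to 2.04, FDR = 0.635) and 1.06 with both LPS groups as 1 group (0.37 to 1.76, FDR = 0.0767). None of the 3 passed. In LPSREPOP against REPOP60, 3 of the 9 members (Vegfa, Lif and Cntf) were at an unadjusted p under 0.05, beside 14% of all genes.

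Nrg1 had negative fold changes in both LPS groups, none of which passed. It was 9.13, 9.27 and 9.31 CPM in LPSCD, below every CD mouse, and how many of all genes separate so was not counted. The log2 fold change there was -0.32 (95% interval -0.69 to 0.06, FDR = 0.548). In LPSREPOP against REPOP60 it was -0.24 (-0.51 to 0.03, FDR = 0.431), and with both LPS groups together -0.28 (-0.49 to -0.07, FDR = 0.128). Cntf had a log2 fold change of -1.81 in LPSREPOP (95% interval -3.35 to -0.27, FDR = 0.246), but these mice held 0.132 CPM on average against 0.498 CPM in REPOP60, below and near the floor of 3 counts. Igf1 (-0.03), Pdgfa (-0.12), Bdnf (0.19) and Gdnf (0.10) had intervals that included 0 in LPSREPOP against REPOP60.

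The response to LPS was not shown to differ between resident and repopulated microglia for any member. LPSREPOP against LPSCD had 0 members called, with Fgf2 alone at an unadjusted p under 0.05, and a background of 0% of 24500 genes, 1973 of them at an unadjusted p under 0.05 (DESeq2 called 0). The test of the difference of the 2 LPS effects likewise called 0 members, 0 at an unadjusted p under 0.05, and 0% of 25712 genes, with 1519 genes at an unadjusted p under 0.05 (DESeq2 called 0). The CD side of this difference rests on the 2 re mice of CD. The difference for Vegfa was 0.32 (95% interval -0.07 to 0.70, FDR = 0.806) and for Fgf2 -0.69 (-1.42 to 0.04, FDR = 0.804). Without LPSCD replicate 3 these were 0.10 and -0.01. Without LPSCD replicate 1, Fgf2 was called for this difference (-0.995, FDR = 0.00893) and in LPSREPOP against LPSCD (-0.96, FDR = 0.0367).

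**Figure D4:**
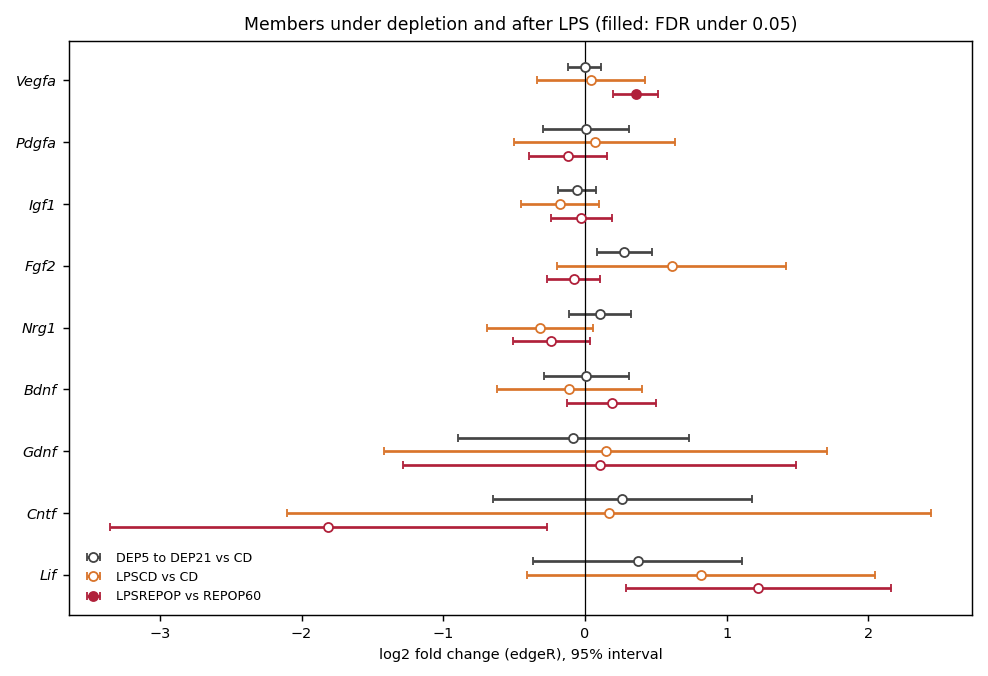
Fitted log2 fold change with 95% intervals of the 9 members in DEP5 to DEP21 against CD (grey), LPSCD against CD (orange) and LPSREPOP against REPOP60 (red); a filled point passed an FDR of 0.05. Vegfa in LPSREPOP, at 0.36, is the only filled point, and Gdnf, Cntf and Lif have the widest intervals.

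Receptors and further ligands of these families were tested from wider lists. In the pooled depletion group 0 of 35 other ligands tested, 0 of 32 receptors, 0 of 9 binding proteins, 0 of 17 response genes of STAT3 or ERK signalling and 0 of 15 hypoxia targets passed, beside the 0.237% of all genes. Their median log2 fold changes lay between -0.01 and 0.05. Among single days, Etv4, an ERK-induced transcription factor, fell in DEP10 (log2 fold change -0.67, FDR = 0.00807). In REPOP21, where 1.9% of all genes were called, 2 of 32 receptors fell, among them Gfra4 (-0.59). 1 of 17 response genes, Etv5 (-0.43), and 1 of 15 hypoxia targets, the glucose transporter Slc2a1 (-0.30), fell, 1 of 10 binding proteins, Fgfbp3 (0.67), which binds FGFs, rose, and 0 of 34 other ligands passed.

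In LPSREPOP against REPOP60, where 2.92% of all genes were called, 2 of 32 receptors rose, namely the Vegfa receptor Flt1 (log2 fold change 0.34, FDR = 0.00200) and the Fgf2 receptor Fgfr1 (0.38, FDR = 0.0116). Flt1 was 170.3, 172, 162 and 136 CPM in LPSREPOP and 118 to 129 CPM in REPOP60. Kdr, the main signalling receptor of Vegfa, had a log2 fold change of -0.13 and did not pass (FDR = 0.450). 1 of 35 other ligands rose, Igf2 (0.36, FDR = 0.00318), a share close to that of all genes. Of the 10 binding proteins, Igfbp7 (1.53, FDR = 5.06e-07) and Igfbp3 (1.30, FDR = 0.0253) rose. Among 17 response genes Etv5 (0.72), Socs3 (0.89), Spred1 (0.32) and Stat3 (0.30) rose and Vgf (-0.44), a peptide precursor induced by nerve growth factor, fell. Of 15 hypoxia targets Hk2 (0.68) and Slc2a1 (0.39) rose and 13 did not pass.

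Vessel markers were higher in the same comparison. The list of 11 endothelial and pericyte genes had 6 called, all higher, led by Cldn5 (log2 fold change 1.51) and Emcn (1.19). Its summed level was 166 to 187 CPM in LPSREPOP, 103 to 120.0 CPM in REPOP60 and 126 to 143 CPM in CD. In LPSCD it summed to 159 to 175 CPM, and 1 of its 11 genes passed there, Cldn5 (1.54, FDR = 0.0198). Of the binding proteins, Igfbp7 passed in LPSCD (1.62, FDR = 0.0318). Of 20 microglia markers 7 rose in LPSREPOP, and of 13 Mueller glia and astrocyte genes 3 rose and Rlbp1 fell. Of 9 retinal ganglion cell genes 2 fell, of 12 photoreceptor genes 1 rose and 1 fell, and of 7 blood genes 2 rose and 1 fell. Their part in the Vegfa result was not tested.

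With the suffix means removed, the genes whose log2(CPM + 1) followed a member most closely over the 65 mice, among 12347 genes, were named where Pearson's r reached 0.6. For Vegfa these were Etv5 (r = 0.684), Irf3 (0.669) and Gys1 (0.666), with r of 0.532, 0.585 and 0.591 without the LPS mice. For Fgf2 they were Fbxl20 (0.756), Frmpd1 (0.753) and Zfyve28 (0.741), falling to 0.546, 0.547 and 0.515 without the LPS mice. For Bdnf they were Dio2 (0.673), Tle3 (0.659) and Rab8a (0.645), and for Nrg1 Dgki (0.661), Usp9x (0.651) and Tenm3 (0.646). For both, r was 0.626 to 0.722 without the LPS mice. No gene reached 0.6 for Igf1, whose highest r was 0.516, or for Pdgfa, with 0.535. These correlations describe mice that share groups and library depth as well.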

How the data were processed

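RNA from 65 mouse retinas was sequenced at BGI, from poly(A) RNA per the labels, and the authors aligned it with HISAT2 to mm10 and counted reads per gene with HTSeq. The deposited gene counts are whole numbers, and the FPKM values deposited by the authors came from StringTie. Strand setting and tool versions are not given in the sources used here. From the counts, CPM was computed per mouse, over totals of 5106429 to 8760443. Fold changes came from edgeR 4.0.16 (R 4.3.3; TMM, quasi-likelihood F test) with group and title suffix as terms, keeping genes counted at least 1 time in 0.5 or more of either group's mice. A gene was called at a Benjamini-Hochberg FDR under 0.05 over all genes tested. The authors fitted an additive batch term whose batches the labels do not name, so the title suffix was used. The comparison of both LPS groups with the re mice of CD and REPOP60 was added after the data were seen.

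Alternatives used DESeq2 1.42.0, limma 3.58.1 on log2(FPKM + 1), other filters, a replicate block and leaving out each mouse. The scripts were tested on simulated data. As to pairing, mice with the same number deviated together (every pair above a correlation of 0.1) in 8 of the 13 groups compared with CD. Same-numbered mice there shared a suffix, and in 0 of these groups did it hold once the suffix was removed. No libraries of the same group agreed within sampling noise, and libraries of different groups were not compared for this. Members and gene lists were chosen with earlier results of these data known. The genes named are the 9 members, up to 5 called genes of largest change per list and comparison, and up to 3 genes with r of at least 0.6 to a member (log2(CPM + 1), mean CPM of at least 5). Gene models are GENCODE M21 and promoters RefSeq. Not every called gene of these lists is reported here.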

Additional observations from a re-analysis of the deposited data

Results flagged for a closer look

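In 13 of 126 combinations of a member and a group of 4 to 6 mice, 1 mouse lay far from the others of its group by Dixon's criterion, which chance meets in about 1 of 20 groups. For Fgf2 these were DEP10 replicate 2 (35.6 CPM against 43.3 to 43.6 in the others), REPOP21 replicate 4 (45.6 against 36.8 to 38.3 CPM) and REPOP7 replicate 6 (54.3 against 31.0 to 39.4 CPM). Vegfa was low in DEP14 replicate 4 (147.9 against 168 to 172 CPM). Bdnf was high in LPSREPOP replicate 4 (14.8 against 9.13 to 9.79 CPM) and REPOP60 replicate 4 (11.03 against 8.77 to 8.998 CPM), and low in REPOP10 replicate 1 (9.13 against 17.5 to 18.3 CPM). Pdgfa was high in REPOP10 replicate 1 (9.79 against 4.86 to 5.18 CPM) and REPOP21 replicate 1 (9.40 against 4.95 to 5.04 CPM). REPOP10 replicate 1 and REPOP21 replicate 1 are the only re mice of their groups, as are DEP10 replicate 1 and DEP21 replicate 1, named next. The rate of 1 of 20 takes no account of the suffix. At few counts, Lif was 1.16 CPM in DEP21 replicate 1 (others 0.489 to 0.571) and 0.124 CPM in DEP7 replicate 2 (others 0.483 to 0.494), Cntf was 0.134 CPM in DEP10 replicate 1 (others 0.234 to 0.249) and Gdnf was 0.263 CPM in LPSREPOP replicate 4 (others 0.392 to 0.402).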

How the results depend on the processing

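Over the 171 member values, DESeq2 and RLE scaling left all 171 on the same side of the threshold, as did edgeR's own expression filter for the 114 values it kept. With no filter, 2 members were called over the 13 comparisons with CD (Fgf2 in DEP2 and DEP7), 1 in LPSCD against CD and 1 for the difference of the LPS effects, each time Fgf2. The replicate block gave 3 over the 13 comparisons (Fgf2 in DEP5, DEP7 and DEP10) and changed no other call. With all 16 groups in 1 fit, Fgf2 was called in LPSCD against CD (0.73, FDR = 0.00489) and in LPSREPOP against LPSCD (-0.66, FDR = 0.0480), 1 member in each. At an FDR under 0.01 with an absolute log2 fold change above 1, 0 members passed in LPSREPOP against REPOP60. Vegfa in that comparison was lost on FPKM values (limma), where 54 of 171 member values also changed sign, 12 of them larger than 1 SE in the counts. Leaving out 1 mouse at a time gave 0 to 1 members called in LPSREPOP against REPOP60, in LPSREPOP against LPSCD, for the difference of the LPS effects and with both LPS groups together, and 1740 of 1746 member values stayed on the same side. These were Vegfa lost without REPOP60 replicate 1, 2 or 4, Vegfa gained without LPSCD replicate 3, and Fgf2 gained without LPSCD replicate 1. The causes were not tested. Low counts limit Cntf, Gdnf and Lif.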
